A study of Mus musculus with 12 samples.

Results

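The comparison described here set MSCs cultured with lipopolysaccharide-treated RAW264.7 cells (MSC+RAW-LPS-TW) against MSCs cultured alone (MSC). It took in 4 of the 12 RNA-seq libraries of the series, 2 in each group, picked by their group labels, and every gene of the deposited table. The other 8 libraries were MSCs with untreated RAW264.7 cells (MSC+RAW-TW, 2 libraries) and bone marrow macrophages of ovariectomized (OVX) and sham-operated mice (3 libraries each), of which the macrophage libraries enter below as reference levels and the MSC+RAW-TW libraries only in alternative fits. MSCs of both groups were labelled as mesenchymal stem cells from the limbs of C57BL/6 mice aged 8 weeks, and the study obtained them as adherent bone marrow cells of tibia and femur that were passaged. The MSC group received no treatment. In the MSC+RAW-LPS-TW group RAW264.7 cells, a macrophage line from a male BALB/c mouse, were stimulated with LPS and shared the culture across a transwell membrane. The methods used here do not give the LPS dose or the culture time for these libraries, nor whether LPS was removed before the co-culture. Nothing in the labels says whether the libraries of a group came from separate cultures, so the p-values below measure the spread between these samples, which may be technical.

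LPS is a component of the outer membrane of Gram-negative bacteria. It is sensed by Toll-like receptor 4, and the signal runs through NF-kB and interferon regulatory factors to cytokine, chemokine and enzyme genes. Activated macrophages secrete TNF and IL-1, which engage NF-kB in neighbouring cells. MSCs are stromal cells of the marrow that can form osteoblasts and adipocytes and that secrete matrix, chemokines and growth factors.

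Markers of macrophages were high in these libraries, against their label, and some stromal markers were near 0. Levels per gene length are given as TPM, in which counts are divided by exon length and scaled to the same total in each library, with ribosomal RNA genes left out. The summed level of 20 macrophage markers was 78431 to 78658 TPM in MSC and 33786 to 36116 TPM in MSC+RAW-LPS-TW, beside 95301 to 113921 TPM in the bone marrow macrophage libraries. The summed level of 16 stromal markers was 2680.4 to 2792 TPM in MSC, 3001 to 3551 TPM in MSC+RAW-LPS-TW and 4598 to 6613 TPM in the macrophage libraries. Lyz2, the lysozyme of macrophages, stood at 55708 and 55389 TPM in MSC and at 21981 and 20487 TPM in MSC+RAW-LPS-TW. It made up most of the summed macrophage level in every library. The median over the 20 macrophage markers was 783 to 815 TPM in MSC and 396 to 477 TPM in MSC+RAW-LPS-TW. In the macrophage libraries that median was 522 to 710 TPM, under that of MSC. Adgre1, which encodes F4/80, was at 536 and 606 TPM in MSC. Among stromal markers, Thy1 reached at most 0.509 TPM and Lepr at most 0.982 TPM in the 4 libraries, whereas Sparc was at 1036 and 992 TPM in MSC and Col1a1 at 235 and 235 TPM, against 1985 to 3105 and 668 to 854 TPM in the macrophage libraries. Ptprc, which encodes CD45, a marker on the negative side of the described surface phenotype of the MSCs, was at 31.0 and 31.4 TPM in MSC and 39.3 and 30.9 TPM in MSC+RAW-LPS-TW, above the 9.04 to 24.0 TPM of the macrophage libraries. Cd34, the other marker of that side, was at 2.58 and 2.43 TPM in MSC and at 2.46 to 3.47 TPM in the macrophage libraries. The 4 markers of the positive side summed to 1377 to 1443 TPM in MSC and 1132 to 1197 TPM in MSC+RAW-LPS-TW, above the 988 to 1080.1 TPM of the macrophage libraries. The levels of its abundant members Ly6a and Itgb1 overlapped between these libraries, whereas Cd44 was in the 4 libraries above all macrophage libraries. Nt5e, also of the positive side, was at 3.04 and 2.75 TPM in MSC, where it overlapped the 0.588 to 3.04 TPM of the macrophage libraries. In MSC+RAW-LPS-TW it was at 19.4 and 17.3 TPM. Of the 16 stromal markers, Pdgfra and Pdgfrb were higher in both MSC libraries than in every macrophage library, as was Lepr, and Col1a1, Col1a2, Col3a1, Dcn, Lum, Thy1, Cxcl12, Postn, Mmp2 and Sparc were lower in both. The groups are named by their labels below.

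**Figure D1:**
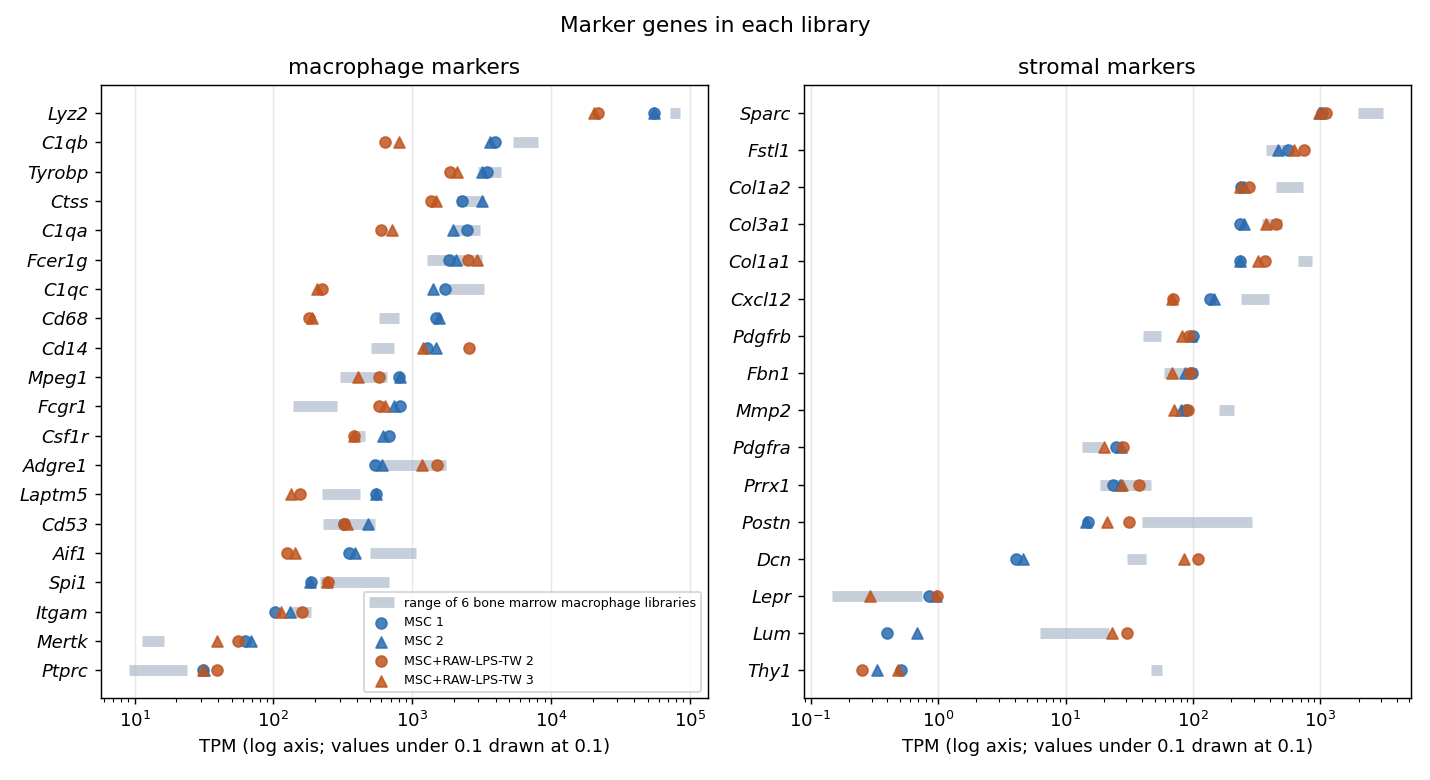
Level in TPM, on a log axis, of 20 macrophage markers (left) and 16 stromal markers (right) in the 2 MSC and 2 MSC+RAW-LPS-TW libraries, with the range of the 6 bone marrow macrophage libraries as grey bars. Lyz2 is the highest marker in all 4 libraries, and Dcn and Lum are the stromal markers with the widest gap between the groups.

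The 4 libraries held between 29823130 and 43122563 counts on genes. Ribosomal RNA genes took 4.83% and 4.14% of counts in MSC and 8.03% and 5.67% in MSC+RAW-LPS-TW, without overlap, and their part in the results was not tested beyond a fit without these genes. Genes of mitochondrial DNA took 0.533% to 0.746%. Over genes, log2(CPM + 1) correlated with Pearson's r of 0.993 between the MSC libraries, 0.989 between the MSC+RAW-LPS-TW libraries and 0.9497 to 0.954 between groups. CPM are counts scaled by library size and TMM factor, without regard to gene length. Each gene is described below by its CPM in the libraries MSC 1 and MSC 2 and then MSC+RAW-LPS-TW 2 and MSC+RAW-LPS-TW 3, before its log2 fold change with the standard error (SE) and the Benjamini-Hochberg adjusted p of edgeR's quasi-likelihood test.

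A fold change of at least 2 at an adjusted p of at most 0.05 was called for 2224 of 17914 genes tested, 12.4% of them. Of these, 1212 (6.77% of genes tested) were higher and 1012 (5.65%) lower in MSC+RAW-LPS-TW. The median log2 fold change over all genes tested was -0.00225. The genes called higher held 5.52% and 5.82% of TPM in the MSC libraries and 23.1% and 24.0% in the MSC+RAW-LPS-TW libraries, a description only, since the same counts chose them. Where a whole group held no more than 3 counts per library, the fitted value depends on the prior count, and a ratio of counts with its 95% counting interval is given in its place. Against a group at 0 counts the fold is a lower bound, and it is also given with counts halved, since the mates of a pair may have been counted separately, which would widen the intervals as well.

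The 2 groups also differed in some of the markers. Of the macrophage markers, 1 was called higher (Adgre1, log2 fold change 1.42, adjusted p = 7.13e-05) and 7 lower, among them Cd68 (-2.82, adjusted p = 7.51e-07). Of the stromal markers, 3 were called higher (Dcn, Lum and Postn) and none lower, Postn not without the filter on low counts, with GC and length trends removed or without MSC+RAW-LPS-TW 2 (log2 fold change 0.82). The 4 Y-linked genes listed summed to 61.3 to 72.5 TPM in MSC and 44.6 to 55.8 TPM in MSC+RAW-LPS-TW, and to at most 0.0330 TPM in the macrophage libraries. Xist was at or under 0.0604 TPM in the 4 libraries, against 11.4 to 33.6 TPM there. The study describes its C57BL/6 mice as female and does not give the sex of the MSC donors separately. The part of RAW264.7 RNA, or of any other macrophage RNA, in the results was not tested. In such bulk samples a change in the share of a cell type and a change of RNA per cell cannot be told apart.

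**Figure D2:**
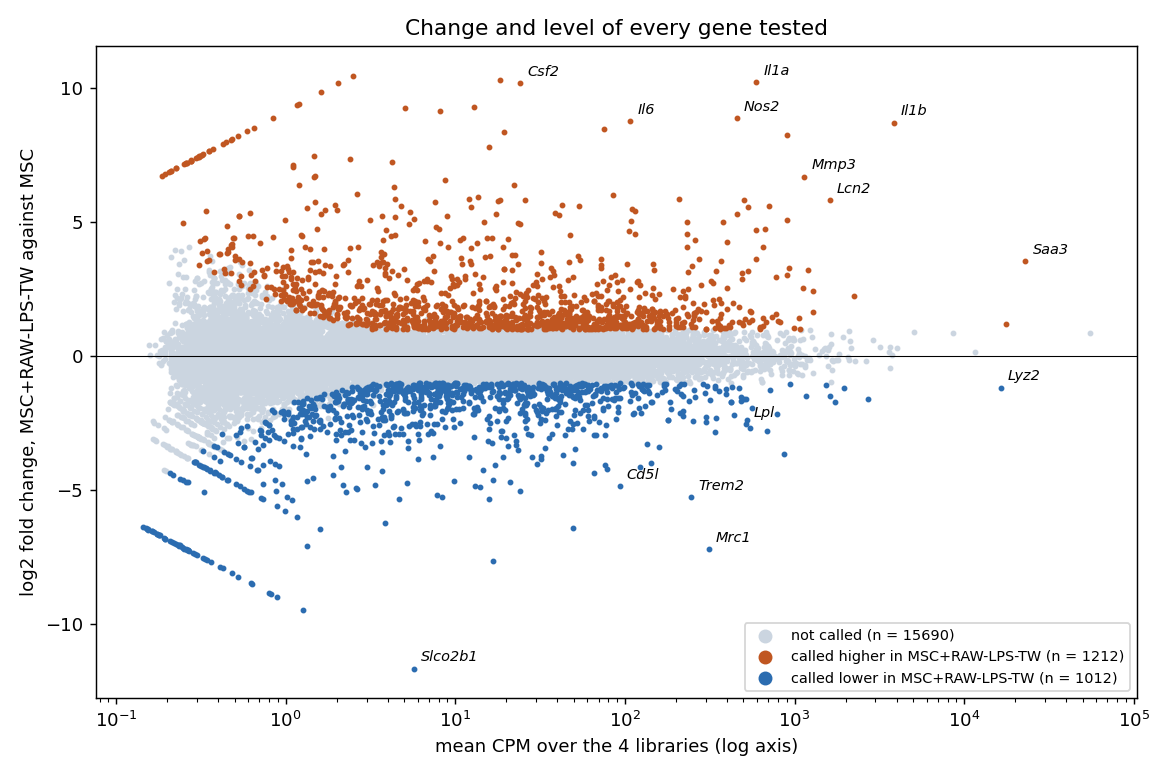
Log2 fold change of each of the 17914 genes tested against its mean CPM over the 4 libraries (log axis), with the 1212 genes called higher in orange and the 1012 called lower in blue. Il1b and Saa3 combine a high level with a rise, Mrc1 and Lyz2 a high level with a fall, and the slanted rows at low CPM are genes with few or no counts in a group.

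The cytokine genes Il1a, Il1b, Il6, Il12a, Csf2 and Csf3 were among the 12 largest rises. Il1a (chr2:129299610-129309972 in GRCm38), which encodes IL-1α, was at 1.01 and 0.956 CPM in MSC and at 1029 and 1341 CPM in MSC+RAW-LPS-TW (log2 fold change 10.23 ± 0.26 SE, adjusted p = 6.52e-09). Il1b (chr2:129364570-129371139), the gene of secreted IL-1β, went from 19.9 and 16.6 CPM to 6721 and 8582 CPM (log2 fold change 8.71 ± 0.25 SE, adjusted p = 8.66e-09). Per length, Il1b stood at 10599 and 11531 TPM in MSC+RAW-LPS-TW, beside Actb at 12429.7 and 12619.9 TPM. Il6 (chr5:30013114-30019981) was at 0.558 and 0.401 CPM and then at 227 and 202 CPM (log2 fold change 8.76 ± 0.23 SE, adjusted p = 6.52e-09). Il12a, the p35 subunit of IL-12, had 2 counts over both MSC libraries and 2244 over both MSC+RAW-LPS-TW libraries, a ratio of 1441 (95% counting interval 398 to 11905). Its partner Il12b, named after its values were seen, had 0 counts against 252 and was at least 108-fold higher (53.9-fold with counts halved). In each of these genes both libraries of MSC+RAW-LPS-TW lay far above both MSC libraries.

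The colony-stimulating factors act on myeloid cells. Csf2, which encodes GM-CSF, had 3 counts in MSC and 2962 in MSC+RAW-LPS-TW, a ratio of 1268 (433 to 6152). Csf3, which encodes G-CSF, was at 0.386 and 0.463 CPM and at 141 and 159.7 CPM (log2 fold change 8.48 ± 0.23 SE, adjusted p = 6.52e-09). Tnf was detected in both groups, at 68.6 and 74.3 CPM and 366 and 437 CPM (log2 fold change 2.49 ± 0.16 SE, adjusted p = 1.37e-06). Tnfsf11, which encodes the osteoclast factor RANKL, was at 0.450 and 1.70 CPM and at 15.5 and 18.7 CPM (log2 fold change 4.06 ± 0.45 SE, adjusted p = 8.63e-05), with a log2 fold change of 3.33 without MSC 1 and 5.24 without MSC 2. Of the pro-inflammatory cytokine list, 12 of 17 were called higher and 1 lower (median log2 fold change 4.06). Il23a (2.29, adjusted p = 0.0805), Csf1 (0.89, adjusted p = 0.0014) and Osm (0.82, adjusted p = 0.0237) were among those not called. The member called lower was Il18, at 7.70 and 12.6 CPM and 4.13 and 3.62 CPM (log2 fold change -1.38 ± 0.29 SE, adjusted p = 0.00585), a call that was not made without MSC 2, where its log2 fold change was -0.99. Some inhibitors of cytokine signalling rose too: Socs3, a feedback inhibitor of STAT3 signalling, from 27.1 and 25.8 CPM to 444 and 437 CPM (log2 fold change 4.06 ± 0.16 SE, adjusted p = 5.28e-08), and Il10 from 8.45 and 6.63 CPM to 82.3 and 90.1 CPM (log2 fold change 3.51 ± 0.18 SE, adjusted p = 3.12e-07). Of the anti-inflammatory list, 5 of 10 were called higher and 0 lower (median log2 fold change 1.70), with Il1rn (0.15) and Il18bp (-0.21) among those not called.

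**Figure D3:**
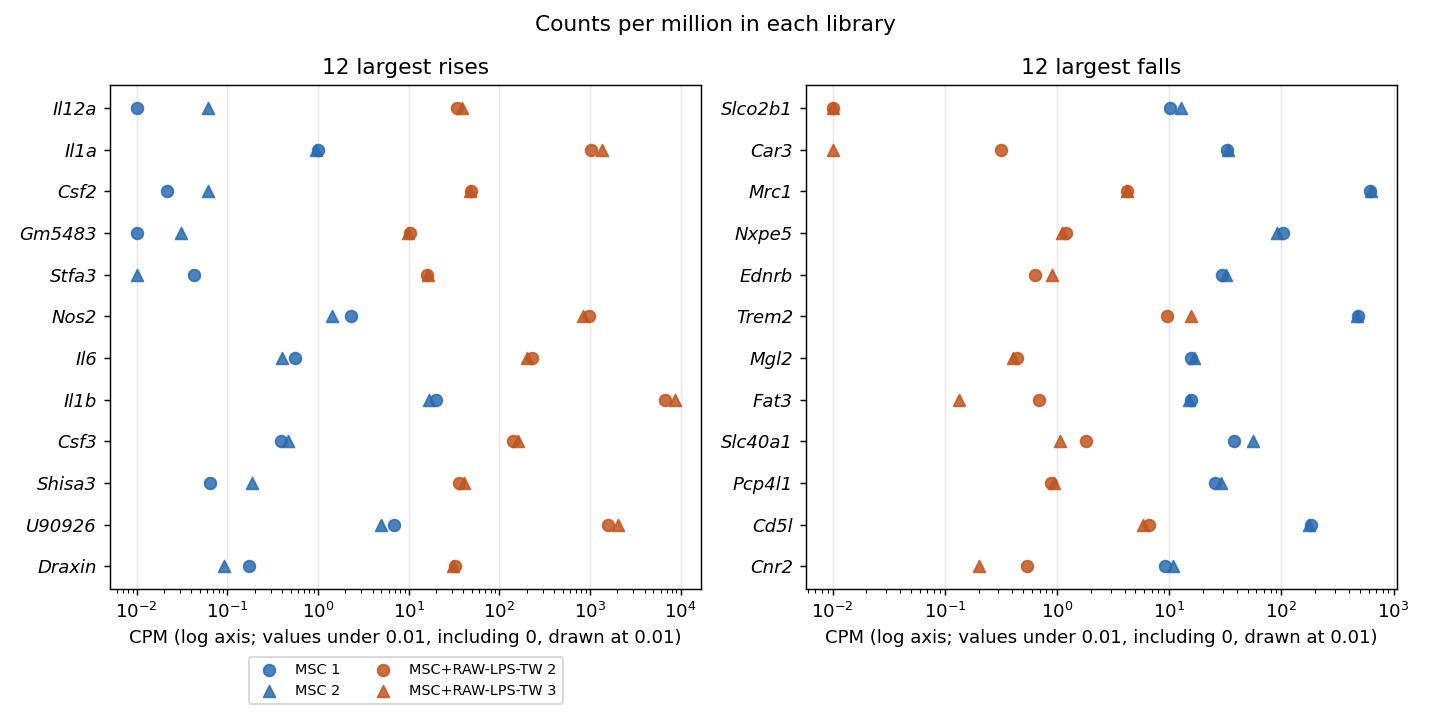
CPM (log axis) of the 12 genes with the largest called rise (left) and the 12 with the largest called fall (right) among protein-coding genes (mean of 5 CPM or more), as 1 point per library. The groups do not overlap for any of the 24 genes, a condition of their choice, and libraries of a group lie close to each other except near 0 counts.

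The promoters of 6 cytokine, chemokine and feedback genes are shown because they hold letters of the NF-kB site, the element through which this factor acts on its targets. Of those of the 12 largest rises that had a promoter in the table, Il6 alone held the letters, and the others were picked after their values were seen. Each line gives the 120 bases before the gene start on the gene's strand, from RefSeq on GRCm38.p6, with matches to the NF-kB letters (GGG, any 2 bases, then TTTCC) or to their reverse complement in capitals. The windows are chr5:30012994-30013113 (+) for Il6, chr5:90891125-90891244 (+) for Cxcl1, chr5:90903779-90903898 (+) for Cxcl2, chr5:90785981-90786100 (+) for Cxcl3, chr12:55492648-55492767 (-) for Nfkbia and chr10:19015411-19015530 (-) for Tnfaip3.
Il6: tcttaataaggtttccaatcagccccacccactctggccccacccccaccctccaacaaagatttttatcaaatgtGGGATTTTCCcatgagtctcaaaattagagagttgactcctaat
Cxcl1: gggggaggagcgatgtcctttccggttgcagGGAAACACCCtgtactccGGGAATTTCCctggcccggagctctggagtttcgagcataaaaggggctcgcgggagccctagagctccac
Cxcl2: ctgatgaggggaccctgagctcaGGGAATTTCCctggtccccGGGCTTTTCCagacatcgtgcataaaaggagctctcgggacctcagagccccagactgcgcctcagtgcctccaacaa
Cxcl3: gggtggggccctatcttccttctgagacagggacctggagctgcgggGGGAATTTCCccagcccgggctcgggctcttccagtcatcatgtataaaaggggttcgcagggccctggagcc
Nfkbia: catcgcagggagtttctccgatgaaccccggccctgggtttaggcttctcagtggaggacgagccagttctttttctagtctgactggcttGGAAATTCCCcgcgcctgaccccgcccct
Tnfaip3: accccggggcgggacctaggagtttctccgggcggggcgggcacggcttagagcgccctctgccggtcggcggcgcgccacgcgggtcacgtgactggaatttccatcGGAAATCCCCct
The matches started 44 bases before the gene start in Il6, 89 and 71 in Cxcl1, 97 and 78 in Cxcl2, 73 in Cxcl3, 29 in Nfkbia and 12 in Tnfaip3. Cxcl1, Cxcl2 and Cxcl3 share the run GGGAATTTCC.

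Over all promoters, the 250 bases before the start were searched. The NF-kB letters were in 2.73% of those of genes called higher, 1.19% of those of genes called lower and 1.499% of those of all genes tested (1.41% of the whole promoter table). The interferon response element, searched as GAAA, any 2 bases and GAAA again, was in 5.74%, 2.49% and 2.73% (2.98% of the table). The AP-1 letters TGANTCA were in 9.41% and 7.48%, both above the 4.95% of all genes tested (6.75% of the table). Both strands were searched, the 3 motifs do not exclude one another, and a match is a description of letters, not of a bound site.

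**Figure D4:**
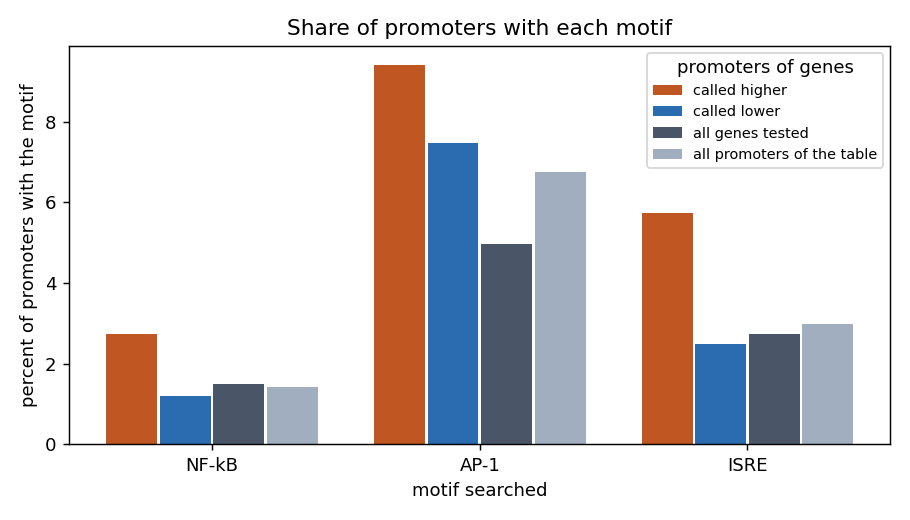
Percent of promoters that hold the letters of the NF-kB, AP-1 and interferon response (ISRE) motifs, for genes called higher, genes called lower, all genes tested and the whole promoter table. The NF-kB and ISRE shares are highest for genes called higher, and the AP-1 share is above that of all genes tested for both directions.

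Of the NF-kB subunits and feedback genes, 14 of 16 were called higher and 0 lower (median log2 fold change 1.73). Nfkbia, the inhibitor that holds NF-kB in the cytoplasm and is itself induced by it, was at 101 and 115 CPM in MSC and at 904 and 1020.0 CPM in MSC+RAW-LPS-TW (log2 fold change 3.16 ± 0.16 SE, adjusted p = 3.55e-07). Tnfaip3, which encodes the ubiquitin-editing enzyme A20, went from 23.5 and 26.0 CPM to 289 and 249.97 CPM (log2 fold change 3.45 ± 0.16 SE, adjusted p = 1.83e-07). Nfkbiz, an atypical IκB that acts in the nucleus, went from 40.4 and 48.7 CPM to 437 and 473 CPM (log2 fold change 3.35 ± 0.17 SE, adjusted p = 2.33e-07). Of the subunit genes, Rel (1.13), Relb (1.25), Nfkb1 (1.68) and Nfkb2 (1.73) were called higher by these log2 fold changes, and Rela was not called (0.74, adjusted p = 0.0113). The call of Rel was not made without MSC+RAW-LPS-TW 2 (0.92). Among Toll-like receptors and adaptors, 3 of 16 were called higher and 4 lower (median log2 fold change 0.13). Tlr13, an endosomal sensor of bacterial ribosomal RNA, was at 239 and 228 CPM and at 14.7 and 11.6 CPM (log2 fold change -4.15 ± 0.18 SE, adjusted p = 8.90e-08). Irak3, a kinase-dead brake on this pathway, was at 97.0 and 93.5 CPM and 339 and 348 CPM (log2 fold change 1.85 ± 0.14 SE, adjusted p = 5.55e-06). Tlr4 itself was called lower (log2 fold change -1.16, adjusted p = 6.62e-04), a call not made without MSC 2 (-0.99), where 2 of the list were called lower.

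Chemokine genes moved in both directions. Of the chemokines, 15 of 23 were called higher and 4 lower (median log2 fold change 2.47). Neutrophil attractants of the CXC family were called higher: Cxcl1 from 12.9 and 22.3 CPM to 1124 and 867 CPM (log2 fold change 5.82 ± 0.29 SE, adjusted p = 2.33e-07), Cxcl2 from 18.5 and 25.5 CPM to 941 and 1138 CPM (log2 fold change 5.56 ± 0.22 SE, adjusted p = 5.82e-08) and Cxcl3 from 26.4 and 31.1 CPM to 1401 and 1359 CPM (log2 fold change 5.59 ± 0.18 SE, adjusted p = 1.94e-08). Cxcl10, which draws T cells, was at 1.74 and 1.64 CPM and at 81.0 and 85.5 CPM (log2 fold change 5.62 ± 0.19 SE, adjusted p = 1.94e-08). Ccl22 had 0 counts in MSC and 32 in MSC+RAW-LPS-TW, at least 13.7-fold higher (6.85-fold with counts halved), and its call was not made without MSC 1 or without MSC 2. The 4 called lower were Ccl6, at 440.1 and 570.4 CPM and 84.1 and 102 CPM (log2 fold change -2.44 ± 0.18 SE, adjusted p = 4.23e-06), Ccl8, at 57.6 and 55.2 CPM and 10.4 and 11.2 CPM (log2 fold change -2.38 ± 0.16 SE, adjusted p = 1.92e-06), Ccl12 (-1.87, adjusted p = 5.55e-06) and the eosinophil attractant Ccl24 (-4.11, adjusted p = 0.0021).

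Receptors for chemokines were mostly lower. Of those tested, 1 of 8 was called higher and 6 lower (median log2 fold change -1.74). Cxcr4, the receptor of CXCL12, which retains cells in the marrow, was at 32.9 and 31.5 CPM in MSC and at 1.01 and 1.61 CPM in MSC+RAW-LPS-TW (log2 fold change -4.62 ± 0.25 SE, adjusted p = 4.67e-07). Ccr2, the monocyte receptor of CCL2, was at 26.0 and 29.2 CPM and 1.14 and 1.78 CPM (log2 fold change -4.25 ± 0.26 SE, adjusted p = 9.63e-07). Ackr3, an atypical receptor that scavenges CXCL12, was the 1 called higher, at 0.536 and 0.586 CPM and 2.49 and 2.68 CPM (log2 fold change 2.20 ± 0.47 SE, adjusted p = 0.00661).

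Enzymes that make inflammatory mediators changed in both directions. Nos2 (chr11:78920787-78960254), the inducible nitric oxide synthase, was at 2.34 and 1.42 CPM in MSC and at 970.3 and 847 CPM in MSC+RAW-LPS-TW (log2 fold change 8.89 ± 0.27 SE, adjusted p = 1.38e-08). Slc7a2, a cationic amino acid transporter that brings in arginine and was named after its values were seen, went from 51.7 and 50.9 CPM to 1984 and 1509.7 CPM (log2 fold change 5.09 ± 0.20 SE, adjusted p = 5.28e-08). For prostaglandin E2, Ptgs2 (cyclooxygenase 2) was called higher (4.99, adjusted p = 8.15e-08), as was Ptges, the terminal synthase, at 23.5 and 22.1 CPM and 882 and 915 CPM (log2 fold change 5.30 ± 0.17 SE, adjusted p = 1.74e-08). Ptgs1, the constitutive cyclooxygenase, was lower, at 27.3 and 27.4 CPM and 9.11 and 9.12 CPM (log2 fold change -1.58 ± 0.17 SE, adjusted p = 7.59e-05). Of the prostaglandin and nitric oxide list, 8 of 12 were called higher and 1 lower (median log2 fold change 1.57).

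Secreted defence proteins included the gene with the largest gain in level. Saa3 (chr7:46711998-46715700), the serum amyloid A made outside the liver, stood at 3630.2 and 3614 CPM in MSC and at 35837 and 48662 CPM in MSC+RAW-LPS-TW (log2 fold change 3.54 ± 0.20 SE, adjusted p = 6.75e-07). Per length it went from 4499.6 and 4430.3 TPM to 41355 and 47846 TPM. Lcn2, which binds bacterial siderophores, went from 56.0 and 57.3 CPM to 2850.3 and 3498 CPM (log2 fold change 5.81 ± 0.20 SE, adjusted p = 2.08e-08), and Hp, haptoglobin, from 92.8 and 82.8 CPM to 930.3 and 1257 CPM (log2 fold change 3.64 ± 0.19 SE, adjusted p = 3.90e-07). Of the acute-phase and secreted defence list, 10 of 15 were called higher and 0 lower (median log2 fold change 1.91). S100a8 rose from 11.5 and 16.6 CPM to 358 and 543 CPM (log2 fold change 5.01 ± 0.26 SE, adjusted p = 3.64e-07). Its usual partner in calprotectin, S100a9, was at 0 and 0 TPM in MSC and 0.363 and 0 TPM in MSC+RAW-LPS-TW, against 1509.6 to 3378 TPM in the macrophage libraries. Among the 10 neutrophil markers only S100a8 and Camp had counts enough to be tested, both were called higher (Camp, 5.81, adjusted p = 2.33e-07), and the summed level of the list was 56.8 to 79.2 TPM in MSC and 1673 to 2147 TPM in MSC+RAW-LPS-TW. Mpo, Elane, Ngp, Ltf, Cxcr2 and Retnlg were each under 1 TPM in the 4 libraries.

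Of the interferon-stimulated genes, 12 of 25 were called higher and 0 lower (median log2 fold change 0.97), and log2 fold changes of members not called ranged from -0.74 to 0.97. The guanylate-binding proteins, which attack intracellular microbes, led: Gbp5 went from 7.57 and 7.34 CPM to 76.8 and 59.5 CPM (log2 fold change 3.19 ± 0.18 SE, adjusted p = 6.82e-07), Gbp3 from 17.3 and 20.3 CPM to 130.4 and 131 CPM (log2 fold change 2.79 ± 0.16 SE, adjusted p = 5.77e-07) and Gbp2 from 29.1 and 29.2 CPM to 121 and 97.1 CPM (log2 fold change 1.90 ± 0.16 SE, adjusted p = 1.10e-05). The log2 fold change of Ifit1 was 1.65, adjusted p = 1.64e-05. Of 20 members with a promoter in the table, 12 held the interferon response letters, Gbp2, Gbp3 and Gbp5 among them. Ifnb1 had too few counts to be tested. Immediate early genes, which respond within minutes of a stimulus, counted 5 of 14 called higher and none lower, with 2 called higher without MSC 1, and with Ier3 at 66.9 and 71.3 CPM and 514 and 719.7 CPM (log2 fold change 3.16 ± 0.19 SE, adjusted p = 9.63e-07).

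Of the genes of resident and alternatively activated macrophages, 1 of 16 was called higher and 10 lower (median log2 fold change -1.48). Mrc1, Trem2 and Mgl2 of this list were among the 12 largest falls. Mrc1 (chr2:14229392-14332057), which encodes the mannose receptor CD206, was at 613 and 624 CPM in MSC and at 4.19 and 4.22 CPM in MSC+RAW-LPS-TW (log2 fold change -7.20 ± 0.19 SE, adjusted p = 6.52e-09). Trem2, a lipid-sensing receptor of macrophages, was at 479 and 475 CPM and 9.46 and 15.6 CPM (log2 fold change -5.25 ± 0.24 SE, adjusted p = 1.58e-07), and the galactose lectin Mgl2 at 15.7 and 16.8 CPM and 0.442 and 0.402 CPM (log2 fold change -5.25 ± 0.29 SE, adjusted p = 5.47e-07). Outside the list, the macrophage survival factor Cd5l was at 182 and 178 CPM and 6.56 and 5.83 CPM (log2 fold change -4.86 ± 0.17 SE, adjusted p = 2.64e-08). Slco2b1, an organic anion transporter, had 886 counts in MSC and 0 in MSC+RAW-LPS-TW, at least 230.0-fold lower (115-fold with counts halved). Beside these falls, the summed macrophage markers were lower in MSC+RAW-LPS-TW, as given above, and their part in the falls was not tested.

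Other large falls concerned varied functions. Car3, a carbonic anhydrase of muscle and fat, was at 32.9 and 33.2 CPM in MSC and at 0.315 and 0 CPM in MSC+RAW-LPS-TW (log2 fold change -7.64 ± 0.48 SE, adjusted p = 1.35e-06). With 10 and 0 counts in MSC+RAW-LPS-TW its size is loose, at -6.69 without MSC+RAW-LPS-TW 3 and -13.24, a value set by the prior count, without MSC+RAW-LPS-TW 2. Ednrb, an endothelin receptor, was at 29.8 and 32.0 CPM and 0.631 and 0.905 CPM (log2 fold change -5.33 ± 0.25 SE, adjusted p = 1.83e-07). Cnr2, the cannabinoid receptor of immune cells, was at 9.14 and 10.8 CPM and 0.536 and 0.201 CPM (log2 fold change -4.73 ± 0.41 SE, adjusted p = 1.47e-05, and -5.64 without MSC+RAW-LPS-TW 2). Nxpe5, Fat3 and Pcp4l1 fell by 6.40, 5.17 and 4.89 on the log2 scale, Fat3 with -6.83 without MSC+RAW-LPS-TW 2 and -4.45 without MSC+RAW-LPS-TW 3. By TPM the largest loss was Lyz2, from 55708 and 55389 TPM to 21981 and 20487 TPM (log2 fold change -1.18 ± 0.16 SE, adjusted p = 3.39e-04). Apoe, which carries lipid out of cells, was at 2759 and 2718 CPM and 888 and 1511 CPM (log2 fold change -1.19 ± 0.22 SE, adjusted p = 0.00302), a call not made without MSC+RAW-LPS-TW 2, where its log2 fold change was -0.89. The chemokine Pf4, also among the largest losses in TPM, did not pass the test (-0.19, adjusted p = 0.534), and its groups overlapped.

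Of the complement genes, 3 of 17 were called higher and 6 lower (median log2 fold change 0.12). The chains of C1q, which start the classical pathway, were lower, with log2 fold changes of -1.53 for C1qa, -2.17 for C1qb and -2.66 for C1qc, and C1qb was at 1337 and 1232 CPM and 229 and 343 CPM. C3, the central component, was higher, at 468 and 452 CPM and 1084 and 1190.0 CPM (log2 fold change 1.31 ± 0.15 SE, adjusted p = 9.33e-05). Of the MHC class II list, 1 of 12 was called higher and 1 lower (median log2 fold change -0.72). The 2 calls are a share near that of all genes tested. The 1 called lower was H2-DMb1 (-1.997, adjusted p = 0.0103), a call not made without MSC 1 (log2 fold change -1.70). Cd40, a costimulatory receptor, was the 1 called higher, at 14.0 and 11.5 CPM and 63.3 and 76.2 CPM (log2 fold change 2.45 ± 0.18 SE, adjusted p = 3.32e-06). Of the inflammasome and gasdermin genes, 2 of 12 were called higher and 4 lower (median log2 fold change 0.02). The call of Casp4 (1.04), higher, was not made without MSC 1 or without MSC+RAW-LPS-TW 2. Nlrp3, the sensor, was at 78.8 and 83.7 CPM and 219 and 187 CPM (log2 fold change 1.32 ± 0.15 SE, adjusted p = 8.89e-05), whereas Pycard, the adaptor that links it to caspase 1, was at 96.6 and 101 CPM and 31.8 and 27.7 CPM (log2 fold change -1.73 ± 0.15 SE, adjusted p = 1.35e-05). Nlrp1a and Nlrp1b were both called lower, but as near copies they may share reads.

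**Figure D5:**
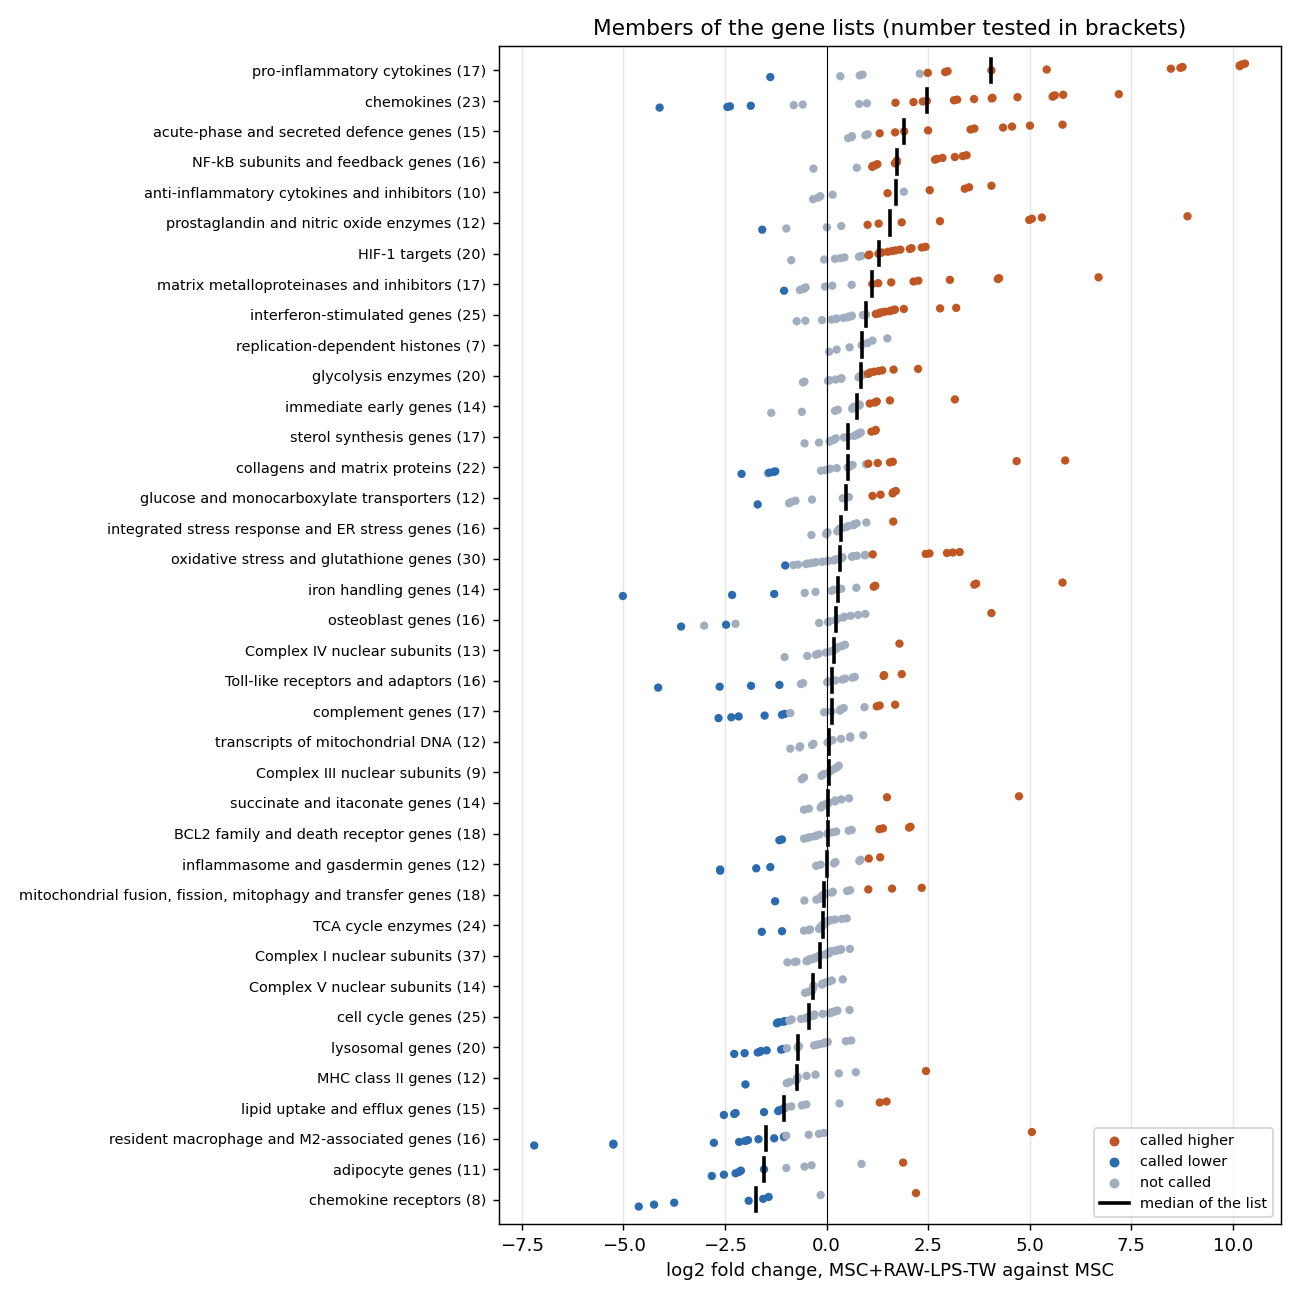
Log2 fold change of the members of 38 gene lists, as 1 point per gene coloured by call, with the median of each list as a black bar and the number tested in brackets. The medians run from 4.06 for pro-inflammatory cytokines to -1.74 for chemokine receptors, and respiratory chain lists sit near 0 with few or no calls.

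Glycolysis genes were often called higher, genes of the mitochondrial respiratory chain seldom. Of the glycolysis enzymes, 8 of 20 were called higher and 0 lower (median log2 fold change 0.85). Pfkfb3, which makes the activator of phosphofructokinase, was at 86.5 and 71.5 CPM in MSC and at 384 and 369 CPM in MSC+RAW-LPS-TW (log2 fold change 2.25 ± 0.16 SE, adjusted p = 2.55e-06). Ldha, which reduces pyruvate to lactate, was at 605 and 632 CPM and 1553 and 2328 CPM (log2 fold change 1.65 ± 0.20 SE, adjusted p = 1.42e-04), and Hk2, a hexokinase, at 102 and 94.5 CPM and 206 and 202 CPM (log2 fold change 1.06 ± 0.14 SE, adjusted p = 2.84e-04). Among transporters of glucose and monocarboxylates, 5 of 12 were called higher and 1 lower (median log2 fold change 0.47). Slc2a1, the glucose transporter GLUT1, was at 96.6 and 88.8 CPM and 304 and 300.5 CPM (log2 fold change 1.70 ± 0.14 SE, adjusted p = 1.09e-05), and Slc16a3, the lactate exporter MCT4, at 125 and 129 CPM and 381 and 409.5 CPM (log2 fold change 1.64 ± 0.14 SE, adjusted p = 1.41e-05). HIF-1 targets, which overlap these lists, were also higher: 13 of 20 were called higher and 0 lower (median log2 fold change 1.29). Hif1a itself was at 109 and 144 CPM and 564 and 515 CPM (log2 fold change 2.09 ± 0.17 SE, adjusted p = 9.48e-06), and Vegfa, the vascular growth factor, at 63.0 and 73.3 CPM and 359.7 and 379 CPM (log2 fold change 2.44 ± 0.15 SE, adjusted p = 1.25e-06).

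Of the TCA cycle enzymes, 0 of 24 were called higher and 2 lower (median log2 fold change -0.09), fewer in all than the 12.4% of all genes tested. The 2 called lower were Idh1, the cytosolic isocitrate dehydrogenase, at 114 and 139 CPM and 40.4 and 43.3 CPM (log2 fold change -1.60 ± 0.15 SE, adjusted p = 3.13e-05), and fumarase, Fh1, at 160.2 and 172 CPM and 80.8 and 74.6 CPM (log2 fold change -1.10 ± 0.14 SE, adjusted p = 2.37e-04). In the list of succinate and itaconate genes, 2 of 14 were called higher and 0 lower (median log2 fold change 0.04), a share near the 12.4% of all genes tested. Acod1, which makes itaconate from aconitate, was at 47.5 and 49.0 CPM and 1298 and 1272 CPM (log2 fold change 4.74 ± 0.17 SE, adjusted p = 2.73e-08), and Slc25a10, the mitochondrial dicarboxylate carrier, at 32.6 and 29.0 CPM and 77.3 and 95.5 CPM (log2 fold change 1.49 ± 0.16 SE, adjusted p = 7.17e-05). The 4 subunits of succinate dehydrogenase, which oxidizes succinate, were not called, with log2 fold changes for Sdha of -0.12, adjusted p = 0.625, Sdhb of 0.05, adjusted p = 0.85, Sdhc of -0.05, adjusted p = 0.875 and Sdhd of -0.11, adjusted p = 0.666. None of the 37 nuclear subunits of complex I was called in either direction (median -0.17), none of 9 of complex III (0.05), none of 14 of complex V (-0.33) and none of 12 transcripts of mitochondrial DNA (0.05). Leaving out 1 library gave at most 1 call in complex I, lower, and at most 2 among the transcripts of mitochondrial DNA, higher or lower depending on the library. For complex IV, 1 of 13 was called higher, the lowly expressed isoform Cox4i2 (1.79, adjusted p = 0.00591).

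Genes of mitochondrial dynamics, mitophagy and transfer counted 3 of 18 called higher and 1 lower, beside 12.4% of all genes tested called in either direction. Bnip3, a mitophagy receptor and HIF-1 target, was at 9.87 and 7.31 CPM and 47.8 and 39.7 CPM (log2 fold change 2.34 ± 0.20 SE, adjusted p = 1.17e-05). Gja1, the gap junction protein connexin 43, was at 119 and 132 CPM and 389.5 and 376 CPM (log2 fold change 1.61 ± 0.14 SE, adjusted p = 1.75e-05). The call of Tnfaip2 (log2 fold change 1.03) was lost without the filter on low counts, with GC and length trends removed, without MSC 1 (0.98) and without MSC+RAW-LPS-TW 3 (0.99). That of Ppargc1b (-1.27) was lost without MSC 1 (-1.01). Of the oxidative stress and glutathione genes, 6 of 30 were called higher and 1 lower (median log2 fold change 0.32). The 1 called lower was Gclc (-1.02), a call not made with GC and length trends removed, without MSC 2 or without MSC+RAW-LPS-TW 3. Sod2, the superoxide dismutase of mitochondria, was at 173 and 175 CPM and 1617 and 1753 CPM (log2 fold change 3.28 ± 0.16 SE, adjusted p = 2.18e-07), and Sod3, the secreted form, at 107 and 97.9 CPM and 652 and 1114 CPM (log2 fold change 3.11 ± 0.24 SE, adjusted p = 5.67e-06). Slc7a11, the cystine importer, was at 10.2 and 12.3 CPM and 103 and 72.7 CPM (log2 fold change 2.96 ± 0.20 SE, adjusted p = 2.32e-06). Iron handling counted 5 of 14 called higher and 3 lower. Slc40a1, the iron exporter ferroportin, was at 37.96 and 55.6 CPM and 1.80 and 1.07 CPM (log2 fold change -5.02 ± 0.29 SE, adjusted p = 6.82e-07), and Fth1, the ferritin heavy chain, at 9644 and 11892 CPM and 22561 and 26885 CPM (log2 fold change 1.20 ± 0.18 SE, adjusted p = 6.79e-04).

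Genes of matrix breakdown were mostly higher where they were called. Of the matrix metalloproteinases and inhibitors, 9 of 17 were called higher and 1 lower (median log2 fold change 1.13). The 1 called lower was Plau, the urokinase plasminogen activator (log2 fold change -1.05, adjusted p = 3.49e-04), a call not made with GC and length trends removed or without MSC+RAW-LPS-TW 3 (-0.98). Mmp3, stromelysin 1, was at 22.2 and 21.2 CPM in MSC and at 2273 and 2227 CPM in MSC+RAW-LPS-TW (log2 fold change 6.70 ± 0.19 SE, adjusted p = 8.25e-09). Mmp9, a gelatinase that osteoclasts and macrophages also make, was at 42.8 and 36.8 CPM and 735 and 777 CPM (log2 fold change 4.25 ± 0.17 SE, adjusted p = 5.82e-08), and the inhibitor Timp1 at 813 and 735 CPM and 2953 and 4455 CPM (log2 fold change 2.26 ± 0.21 SE, adjusted p = 2.08e-05). Of the collagens and matrix proteins, 6 of 22 were called higher and 4 lower (median log2 fold change 0.54). Small proteoglycans of stroma went both ways: Dcn was at 7.44 and 8.48 CPM and 214 and 193 CPM (log2 fold change 4.68 ± 0.17 SE, adjusted p = 3.51e-08), and Lum at 0.3003 and 0.525 CPM and 24.9 and 22.2 CPM (log2 fold change 5.87 ± 0.30 SE, adjusted p = 3.12e-07). Ogn was called lower (-2.09, adjusted p = 3.68e-04), and Aspn (-1.45, adjusted p = 0.118) and Bgn (-0.14, adjusted p = 0.576) were not called. Tnc, tenascin C, was at 257 and 284 CPM and 846 and 829 CPM (log2 fold change 1.63 ± 0.15 SE, adjusted p = 1.91e-05). The chains of collagen VI were lower, with log2 fold changes of -1.41 for Col6a1, -1.31 for Col6a2 and -1.26 for Col6a3. Col1a1 (0.78, adjusted p = 0.00249) and Col1a2 (0.26, adjusted p = 0.237), the chains of bone collagen, were not called.

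Osteoblast genes showed no common direction. Of 16 tested, 1 was called higher, Tnfsf11, and 2 lower (median log2 fold change 0.24), beside 12.4% of all genes tested called in either direction. Bmp4, a bone morphogenetic protein, was at 6.93 and 6.70 CPM and 0.757 and 0.369 CPM (log2 fold change -3.58 ± 0.40 SE, adjusted p = 8.63e-05, and -4.23 without MSC+RAW-LPS-TW 2). Without that library 4 genes of the list were called lower. Ibsp, bone sialoprotein, was at 2.51 and 1.30 CPM and 0.347 and 0.335 CPM (log2 fold change -2.47 ± 0.60 SE, adjusted p = 0.0128), a call not made without MSC 1, where its log2 fold change was -1.92. Runx2 (0.03, adjusted p = 0.93) and Alpl (-0.18, adjusted p = 0.473), which mark the osteoblast line, were not called. Of the adipocyte genes, 1 of 11 was called higher and 6 lower (median log2 fold change -1.54). Lpl, lipoprotein lipase, was at 836 and 927 CPM and 153 and 153 CPM (log2 fold change -2.53 ± 0.15 SE, adjusted p = 9.63e-07), and Fabp4, which macrophages also express, at 95.1 and 106 CPM and 19.5 and 23.1 CPM (log2 fold change -2.24 ± 0.16 SE, adjusted p = 3.25e-06). The regulator Pparg was lower (-1.54, adjusted p = 2.58e-04), and Cebpb was the 1 member called higher (1.89, adjusted p = 2.72e-05). Osteoclast genes, which are typical of bone-resorbing cells, summed to 188 to 190.3 TPM in MSC and 803 to 867 TPM in MSC+RAW-LPS-TW, where Mmp9 supplied 625 and 562 TPM. Of the 6 tested, Mmp9, Acp5 (log2 fold change 2.26, adjusted p = 3.76e-06) and Itgb3 (1.36, adjusted p = 1.91e-04) were called higher and Atp6v0d2 lower (-2.51, adjusted p = 1.25e-05). Calcr was at or near 0 and Ocstamp and Dcstamp were under 1 TPM in the 4 libraries.

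Lysosomal genes counted 8 of 20 called lower and none higher (median log2 fold change -0.71). Psap, the saposin precursor, was at 2763 and 2504 CPM and 774 and 854 CPM (log2 fold change -1.69 ± 0.16 SE, adjusted p = 2.13e-05), and Lipa, the acid lipase that frees cholesterol, at 479 and 521 CPM and 122 and 84.7 CPM (log2 fold change -2.27 ± 0.19 SE, adjusted p = 1.08e-05). Of the genes of lipid uptake and efflux, 2 of 15 were called higher and 8 lower (median log2 fold change -1.05). Abca1, the cholesterol exporter, went the other way, at 86.2 and 92.8 CPM and 239 and 204 CPM (log2 fold change 1.31 ± 0.15 SE, adjusted p = 9.78e-05). Sterol synthesis counted 3 of 17 called higher and none lower, of which Idi1 and Sc5d were not called without MSC 2 (log2 fold changes 1.19 and 0.94) or without MSC+RAW-LPS-TW 2 (0.94 and 0.93), nor Idi1 without MSC 1 (1.20). In the cell cycle list 5 of 25 were called lower and none higher (median -0.44). They were Ccnd1 (-1.03, adjusted p = 5.18e-04, a call not made with GC and length trends removed, without MSC 1, at -0.94, or without MSC+RAW-LPS-TW 3, at -0.93) and 4 genes of DNA replication, Pcna, Mcm2, Mcm5 and Mcm6, of which Mcm2 was at 52.5 and 60.0 CPM and 23.4 and 25.1 CPM (log2 fold change -1.21 ± 0.15 SE, adjusted p = 2.13e-04). The call of Pcna (-1.22) was not made without MSC 2 (-0.93). The mitotic gene Mki67 was not called (-0.92, adjusted p = 0.00284).

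Of the integrated stress response and ER stress list, 1 of 16 was called higher and none lower (median 0.36), a share near that of all genes tested. It was Dnajb9 (1.64, adjusted p = 0.00603), a call not made with DESeq2 or without MSC+RAW-LPS-TW 3 (log2 fold change 0.95). Of the BCL2 family and death receptor genes, 4 of 18 were called higher and 2 lower (median log2 fold change 0.03). The call of Bcl2 (-1.16), lower, was not made without MSC+RAW-LPS-TW 2 (-0.90). Fas, the death receptor, was at 9.35 and 10.5 CPM and 41.3 and 41.8 CPM (log2 fold change 2.07 ± 0.17 SE, adjusted p = 7.97e-06), and Bcl2l1, which protects cells, at 181 and 187 CPM and 80.6 and 91.1 CPM (log2 fold change -1.10 ± 0.14 SE, adjusted p = 2.56e-04). None of 7 replication-dependent histone genes was called, with values of 0.06 to 1.496, and their messages lack a poly(A) tail. Of the 11 genes tested that the study names for the MSCs, 6 were called higher and none lower. The study named part of these from the same samples, so their count is not independent evidence of direction. Marker lists of lymphocytes and endothelium held no called gene: T and NK cells summed to 4.35 to 7.15 TPM in MSC and 3.63 to 4.40 TPM in MSC+RAW-LPS-TW, B and plasma cells to 16.3 to 18.4 TPM and 10.98 to 12.3 TPM, and endothelium to 32.8 to 37.1 TPM and 28.5 to 36.6 TPM. Dendritic cell markers, without a called gene, summed to 39.6 to 42.3 TPM and 32.1 to 39.9 TPM. Erythroid markers summed to 4.94 to 5.57 TPM and 13.7 to 15.3 TPM with 2 of 5 called higher, a count that was lower without MSC 1. Mast cell and basophil markers summed to 143 to 167 TPM and 309 to 332 TPM, nearly all of it Mcpt8, with 2 of 6 called higher.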

How the data were processed

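RNA-seq was analysed for 4 libraries, 2 MSC and 2 MSC+RAW-LPS-TW. Per the labels and methods, the authors prepared strand-marked poly(A) libraries, trimmed paired reads with Trim Galore 0.6.7, mapped them to GRCm38 with HISAT2 2.1.0 and counted them per Ensembl gene with featureCounts 2.0.1. What they deposited are raw counts by gene, neither normalized nor filtered, with the exon length of each gene in another column. The strand setting and the counting of mates are not given in the sources used here. Of counts between 1 and 20, 60.0% to 69.5% were even in each library. The columns of MSC+RAW-LPS-TW carry the numbers 2 and 3, which the labels do not tie to their own replicates, so each entered as a replicate of the group without a number of its own.

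Gene names came from GENCODE vM21, which named 55227 of 55487 identifiers. Where identifiers shared a symbol, the one with the higher mean was used in lists. The test was edgeR 4.0.16 (R 4.3.3), TMM, filterByExpr defaults, quasi-likelihood, two-sided, over the 4 libraries, with calls at 2-fold or more and a p of 0.05 or less after Benjamini-Hochberg adjustment. The common biological coefficient of variation was 0.195. In counts simulated for this comparison over 17125 genes, 77 of 100 genes changed by 1.5 and 98 of 100 changed by 3 on the log2 scale were recovered, with 4 false calls. The changed genes were drawn from those above a minimum level in MSC. Both groups were simulated from the MSC means with the same smoothed spread. Recovery of genes nearly absent from MSC, and the wider spread of the MSC+RAW-LPS-TW libraries, were therefore not tested. TPM left out ribosomal and small structured RNA genes, which took 17.1% to 38.3% of length-scaled counts, a choice made after seeing the data. Counting intervals, at 95%, cover counting error only.

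The comparison, the 39 gene lists and the 14 marker lists were chosen with earlier results of these data known. Named genes were the 12 largest called rises and falls among protein-coding genes of 5 CPM or more on average and groups that do not overlap, up to 3 called members per list and direction, genes the study names, and the 5 genes highest in CPM and in TPM change in each direction. Not all of these are printed, some genes are not reported here, and some members of the lists are named beside them. Alternatives were RLE factors, DESeq2 1.42.0, other filters, a fit over all 6 MSC libraries, halved counts, leaving out each library and, added after seeing the data, a block on a suffix of the column names, removal of GC and length trends, removal of ribosomal RNA genes, and averaging both MSC+RAW-TW libraries in the wider fit.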

Additional observations from a re-analysis of the deposited data

How the results depend on the processing

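The 2224 calls became 2229 with RLE factors, 2250 with DESeq2, 2462 without the filter on low counts, 2013 with a mean CPM of at least 1, 2412 with all 6 MSC libraries in the fit and 2209 with counts halved. The 2 MSC+RAW-TW libraries in the fit of 6 differed far less from each other than other pairs did (mean chi-square per gene 4.46 at high counts), and averaged to 1 they gave 2252 calls, an alternative added after seeing the data. Among the others added then, calls became 2465 with a block on the suffix of the column names, 2188 with GC and length trends removed and 2222 without ribosomal RNA genes. Leaving out 1 library gave 1923 to 2804 calls, 1064 to 1300 higher and 859 to 1504 lower. The largest of these came without MSC+RAW-LPS-TW 2, where 46.4% of calls were higher against 54.5% in the full set. Between 1737 and 2212 of the calls were shared with each of these alternatives. Without a fold limit 4157 genes passed, 2234 higher and 1923 lower, and a fold limit of 4 left 904, 478 higher and 426 lower. Of the 140 genes called that the naming rule covers, 122 were called in every alternative that tested them and none changed direction. The 18 that lost the call somewhere were Apoe, Bcl2, Casp4, Ccl22, Dnajb9, Dusp1, Gclc, H2-DMb1, Ibsp, Idi1, Ifi27l2a, Il18, Pcna, Plau, Ppargc1b, Sc5d, Tlr5 and Tnfaip2. The medians of 32 of 39 gene lists kept their sign in every alternative, and those that did not were within 0.171 of 0 on the log2 scale in the full set.

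No paired analysis was possible by replicate number because the columns of the groups share fewer than 2 replicate numbers, 1 and 2 for MSC against 2 and 3 for MSC+RAW-LPS-TW, so the planned block on that number was not run. The suffix blocked on above is not a replicate number, and the sources used here do not say what it marks. The mean chi-square per gene at high counts was 84.4 between the MSC libraries and 282 between the MSC+RAW-LPS-TW libraries, so neither pair is a repeat of 1 library by counting noise. With 2 libraries a group, genes of few counts and changes near 2-fold are the ones that depth and replication limit most.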

Other observations

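Apart from Stfa3, Gm5483 and U90926, the genes of this section lie outside the naming rule and were chosen after their values were seen. Stefin A genes, which encode cysteine protease inhibitors, were among those nearly absent from MSC. Stfa3 had 2 counts in MSC and 993 in MSC+RAW-LPS-TW, a ratio of 638 (176 to 5272 by the 95% counting interval). Gm5483 had 1 and 618 counts, and 2010005H15Rik was at 2.57 and 1.73 CPM in MSC and 107 and 104 CPM in MSC+RAW-LPS-TW (log2 fold change 5.59 ± 0.21 SE, adjusted p = 5.28e-08). These near-identical copies lie in a cluster and the split of reads among them is uncertain. Serpinb2, an inhibitor of plasminogen activators, was at 5.92 and 8.36 CPM in MSC and 464 and 352 CPM in MSC+RAW-LPS-TW (log2 fold change 5.84 ± 0.24 SE, adjusted p = 6.64e-08).

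Tnfrsf9, the costimulatory receptor 4-1BB, was at 0.601 and 0.432 CPM in MSC and 40.1 and 48.0 CPM in MSC+RAW-LPS-TW (log2 fold change 6.37 ± 0.25 SE, adjusted p = 5.28e-08). The adenosine receptor Adora2a was at 0.729 and 0.401 CPM in MSC and 15.1 and 15.9 CPM in MSC+RAW-LPS-TW (log2 fold change 4.73 ± 0.32 SE, adjusted p = 2.00e-06), and the decoy receptor Il13ra2 was at 0.107 and 0.864 CPM in MSC and 28.8 and 24.8 CPM in MSC+RAW-LPS-TW (log2 fold change 5.93 ± 0.52 SE, adjusted p = 1.41e-05), with 4.95 without MSC 1 and 7.92 without MSC 2. The NAD glycohydrolase Cd38 was at 18.6 and 19.5 CPM in MSC and 409 and 484 CPM in MSC+RAW-LPS-TW (log2 fold change 4.55 ± 0.17 SE, adjusted p = 4.77e-08). Clec4e, the macrophage lectin Mincle, was at 177 and 178 CPM in MSC and 1377 and 1379 CPM in MSC+RAW-LPS-TW (log2 fold change 2.95 ± 0.15 SE, adjusted p = 3.46e-07). In the other direction, Gpr183, which guides cells along oxysterols, was at 16.3 and 21.7 CPM in MSC and 1.10 and 0.402 CPM in MSC+RAW-LPS-TW (log2 fold change -4.64 ± 0.38 SE, adjusted p = 9.03e-06), with -5.58 without MSC+RAW-LPS-TW 2, and the insulin-like growth factor Igf1 was at 259.6 and 276 CPM in MSC and 13.1 and 20.7 CPM in MSC+RAW-LPS-TW (log2 fold change -3.98 ± 0.22 SE, adjusted p = 5.32e-07). Nt5e, which encodes the surface enzyme CD73 of the study's MSC phenotype, was at 8.11 and 7.40 CPM in MSC and 55.6 and 57.9 CPM in MSC+RAW-LPS-TW (log2 fold change 2.87 ± 0.16 SE, adjusted p = 6.65e-07).

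Of 468 lincRNAs tested, 40 were called higher and 37 lower, and of 750 antisense transcripts 22 and 35, beside 6.77% and 5.65% of all genes tested. Mir155hg, the host transcript of an inflammation-induced microRNA, was at 0.708 and 0.278 CPM in MSC and 28.8 and 20.04 CPM in MSC+RAW-LPS-TW (log2 fold change 5.55 ± 0.37 SE, adjusted p = 1.79e-06), with 6.44 without MSC 1. AW112010, a transcript of activated immune cells, was at 10.8 and 11.8 CPM in MSC and 65.3 and 74.7 CPM in MSC+RAW-LPS-TW (log2 fold change 2.63 ± 0.16 SE, adjusted p = 1.12e-06). The imprinted H19 was at 60.9 and 58.0 CPM in MSC and 4.19 and 4.79 CPM in MSC+RAW-LPS-TW (log2 fold change -3.73 ± 0.18 SE, adjusted p = 1.85e-07), and Gas5 was at 406 and 452 CPM in MSC and 172 and 160.2 CPM in MSC+RAW-LPS-TW (log2 fold change -1.37 ± 0.15 SE, adjusted p = 6.44e-05). U90926, annotated as protein-coding and among the 12 largest rises, was at 6.82 and 4.91 CPM in MSC and 1580.3 and 2022 CPM in MSC+RAW-LPS-TW (log2 fold change 8.25 ± 0.26 SE, adjusted p = 1.64e-08). In all of the genes above both libraries of the higher group lay above both libraries of the lower group.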
